A study of Mus musculus with 8 samples.

Results

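Hepatic stellate nuclei formed cluster 5 of the 13 clusters in a deposited table of mean gene levels per cluster, from single-nucleus RNA-seq of mouse liver. They are the pair of columns that the table gives for cluster 5, 1 per genotype, with all of their genes. Of 22578 genes in the table, 18986 had a value above 0 in cluster 5, 17751 in the control column and 17700 in the MKO column. Control mice carried floxed Tgfbr1 alleles (flox/flox). Tgfbr1 MKO mice carried the same floxed alleles and LysMcre, a Cre recombinase driven by the myeloid Lyz2 locus. Stellate cells of both genotypes thus carry the floxed alleles, and the Cre is directed at myeloid cells. Tgfbr1 encodes the type I receptor for TGF-beta. All mice had eaten a MASH diet, a model of metabolic dysfunction-associated steatohepatitis, for 30 weeks. Nuclei came from frozen livers and were stained, sorted and loaded on a droplet platform (10x Chromium). Each nucleus library was 1 pool of 3 livers, which leaves 2 of the series' 8 samples for this comparison and no replicate. The other 6 samples were bulk RNA-seq libraries of whole liver, 3 of each genotype. How many nuclei each cluster held in each pool is not known here, and the counting error of a cluster mean therefore cannot be given.

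Hepatic stellate cells are the vitamin A storing pericytes of the liver sinusoid. They lie between hepatocytes and endothelium, release growth factors such as HGF and BMPs, and respond to endothelin, angiotensin and PDGF. In injured liver they can lose their retinoid stores, take on a contractile myofibroblast state and deposit collagen, and TGF-beta from macrophages and other cells is a known driver of that state. The comparison of the 2 columns asks which stellate genes stood at other levels in livers whose myeloid cells were targeted for Tgfbr1 deletion.

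The levels below are means over the nuclei of a cluster, scaled so that each column sums to 10000. They depend on transcript capture as well as abundance, and levels of different genes were not compared with each other. Genes were compared between the pools when the larger value of the pair was at least 1.18, the 90th percentile of such values in cluster 5, and log2 ratios of MKO over control were taken after adding 0.118 to both. This left 1899 genes, of which 1515 reached the floor in both pools, 224 in the control pool only and 160 in the MKO pool only. With 1 pool per genotype there is no test of any difference between the columns: a ratio compares these 2 pools, not the genotypes.

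Tgfbr1, the targeted gene, stood at 13.5 (control) and 4.87 (MKO) in cluster 2, which held the macrophage genes, and at 2.84 and 2.13 in cluster 5. In whole liver its normalised count was 737, 810.4 and 777 in the control livers and 560, 857 and 735 in the MKO livers, which overlapped (limma adjusted p = 0.816). These values count reads over the whole gene, and the part of the gene between the lox sites was not looked at alone. In whole liver RNA, fewer cells of a type and less RNA per cell cannot be told apart.

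The 4 markers given with the stellate label stood high in cluster 5 in both pools. They came with the label, so their height is a description and not a test of it. Reln, the secreted glycoprotein reelin and a marker of stellate cells in liver, stood at 55.3 in the control column and 43.9 in the MKO column, against at most 1.77 in any other cluster. Ntm, a neuronal-type adhesion protein, stood at 19.2 and 23.2, and at most 0.68 elsewhere. Bmp5, a BMP ligand, stood at 14.9 and 14.5, and at most 0.777 elsewhere. Ednra, the endothelin A receptor, stood at 12.2 and 11.4, and at most 0.68 elsewhere. All 30 genes of a wider list of stellate identity, which holds these 4, were highest in cluster 5. Their summed level was 292 (control) and 301 (MKO). The next highest sum was 20.8 in cluster 12 of the control pool, the cluster with the mesothelial genes.

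**Figure D1:**
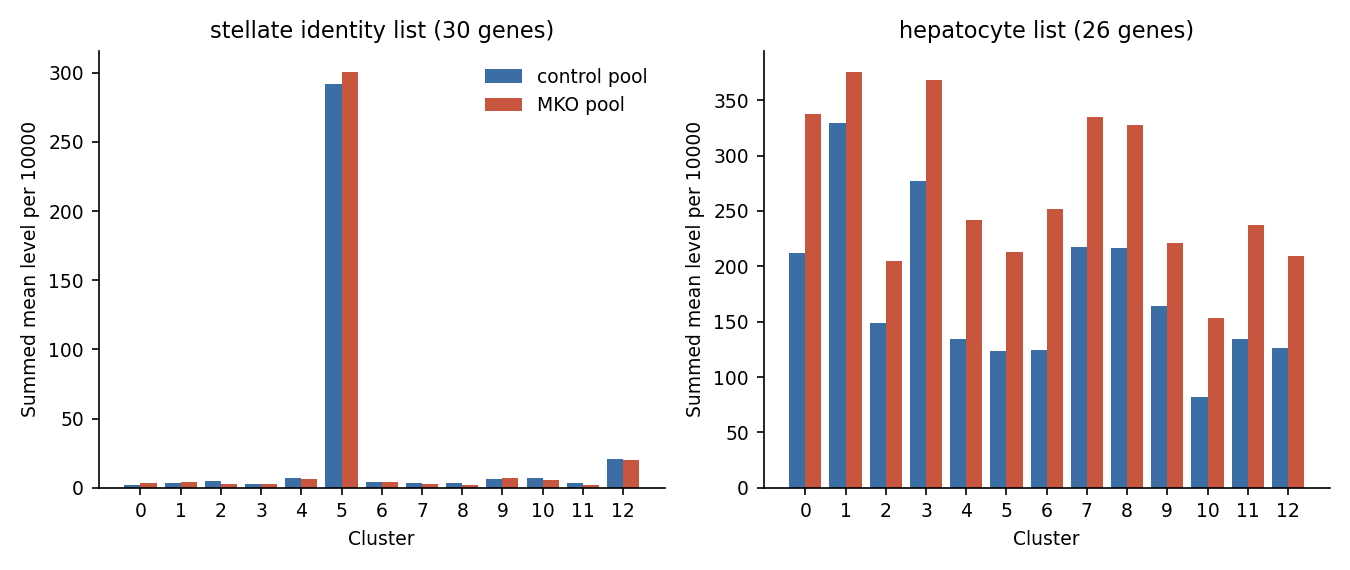
Summed mean level per 10000 (vertical axis) of the stellate identity list (left) and the hepatocyte list (right) in each of 13 clusters (horizontal axis), with 1 bar per pool of 3 livers. Stellate genes reached 292 and 301 in cluster 5 and at most 20.8 elsewhere, while hepatocyte genes were found in every cluster and had the higher bar in the MKO pool in all 13.

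Markers of other cell types were low in cluster 5, with hepatocyte genes as the exception. Some portal fibroblast and smooth muscle genes, though low, were highest in cluster 5. The macrophage list summed to 3.0 (control) and 4.66 (MKO), against 94.2 and 105 in the macrophage cluster 2. C1qa, a complement subunit made by macrophages, stood at 0.0474 and 0.296 in cluster 5, and Cd5l, a Kupffer cell gene, at 0.0494 and 0.278. The endothelial list summed to 5.96 and 5.29, against 216 and 215 in cluster 4. T and NK genes summed to 0.235 and 0.219, B lineage genes to 0.282 and 0.248, and dividing-cell genes to 0.236 and 0.239. Portal fibroblast genes summed to 4.08 and 3.23, against 17.2 in the control pool of cluster 12. Eln alone passed the floor, while Dpt, Mfap4 and Col15a1 were under it but highest in cluster 5. Smooth muscle genes summed to 1.01 and 1.41 with 0 past the floor, and Myh11, Lmod1 and Tagln were highest in cluster 5. Admixture of these cell types was not tested. Of 11 mesothelial genes, 7 were listed at 0 in each pool, Msln among them, and of 12 bile duct genes 4 were at 0 in each pool. Hepatocyte genes, by contrast, summed to 123 and 213. Bicc1, an RNA-binding protein on the bile duct list, stood at 13.7 and 8.60 and made up most of that list's sum of 14.5 and 9.10.

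Cluster 5 had a sharp signature of its own. Among the 1515 genes at the floor in both pools, 114 (7.52%) were at least 2-fold above every column of the other 12 clusters, 65 at least 4-fold and 21 at least 10-fold. Among the 15 leading genes by this measure were Ntm, Reln, Lrrc4c, Nr1h5, Pdgfra, Egfem1, Zfp804b, Bmp5, Mamdc2, Ccbe1, Pdgfrb, Ednra, Lama1 and Gm32647. Pdgfra and Pdgfrb, the PDGF receptors, stood at 5.15 and 6.04 and at 3.98 and 3.60, and neither passed 0.153 outside cluster 5. Lama1, a laminin chain of basement membrane, stood at 2.07 and 2.12 and reached 0.0395 elsewhere. These genes were chosen by their level in the same nuclei, so their height in cluster 5 is a description and not a result.

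**Figure D2:**
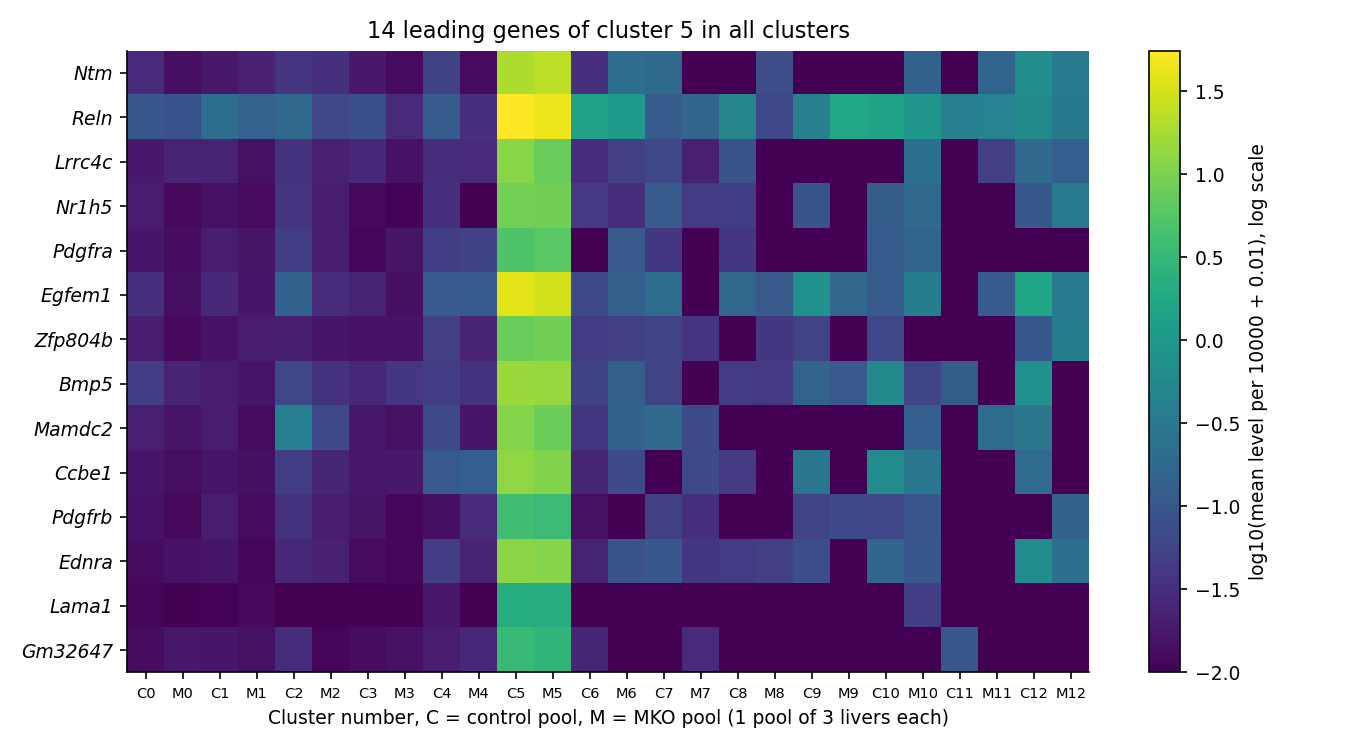
Mean level per 10000 on a log10 scale (colour) of 14 leading genes of cluster 5 (rows) in the control (C) and MKO (M) columns of each of 13 clusters. Both columns of cluster 5 stand out in every row, and the next highest value is 1.77, for Reln in the MKO column of cluster 9.

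Each of the 50 leading genes differed by less than 2-fold between the pools. They were ranked by the lower value of the pair and had to reach the floor in both pools, so genes that differ between the pools were disfavoured and this closeness is partly built in. Over the 50 leading genes the median log2 ratio of MKO over control was -0.13, the same to 2 decimals as that of all 1899 genes compared. The lowest was Robo2, a receptor for Slit guidance proteins, at 35.2 and 20.1 (1.74-fold lower in the MKO pool). The highest was Colec10, a collectin lectin secreted by stellate cells, at 4.69 and 9.26 (1.95-fold higher). Across the 1899 genes the control and MKO columns of cluster 5 had a correlation of log levels of 0.92 (a description across genes, which share 2 libraries), and the closest other cluster within the control pool was cluster 12 at 0.39.

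Of the 1899 genes compared, 38 (2.0%) were at least 2-fold higher in the MKO pool and 17 (0.895%) at least 2-fold lower. Because the median log2 ratio lay at -0.13, centring on it turned this split into 59 higher and 11 lower. Of the 38, only 18 reached the floor in both pools, and of the 17 only 8 did. The other 20 and 9 were under the floor in 1 pool. Fhl1 (log2 ratio 1.005) was the last gene inside the upper line and Apoa1 (0.998) the first outside, and Cdh18 (-1.03) and Frem1 (-0.99) stood on either side of the lower one.

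**Figure D3:**
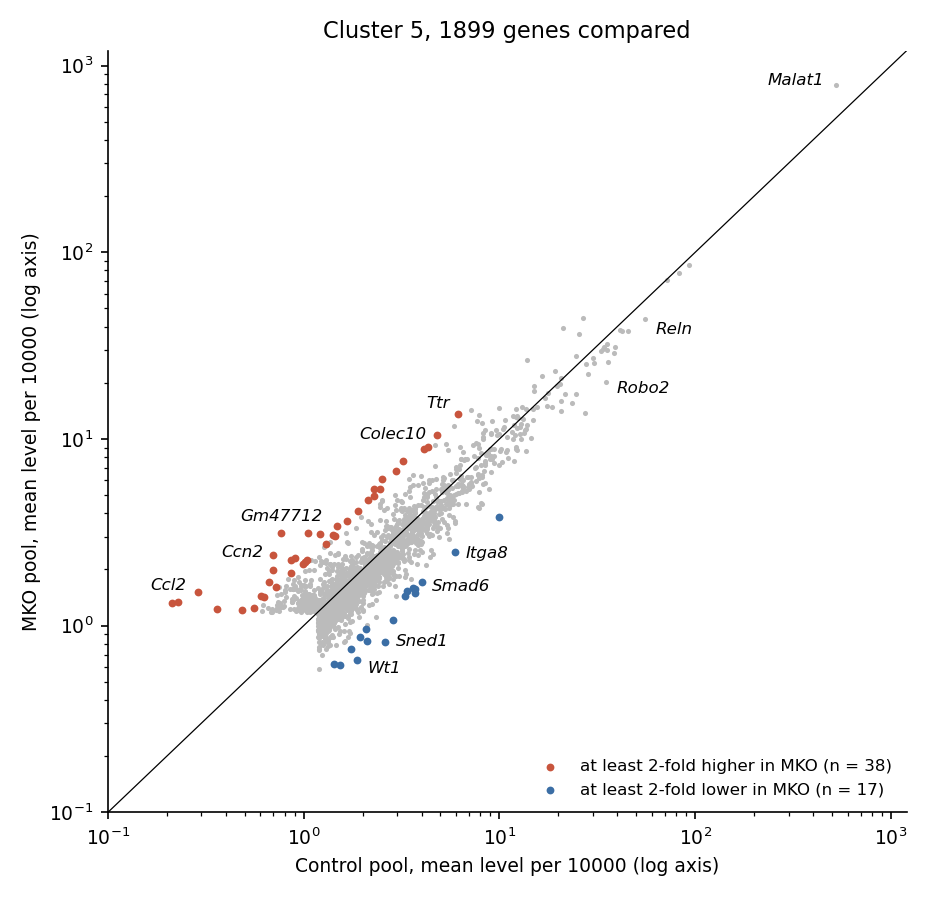
Mean level per 10000 in the control pool (horizontal log axis) against the MKO pool (vertical log axis) for the 1899 genes compared in cluster 5, with the line of equal levels. The 38 genes at least 2-fold higher in the MKO pool lie above the cloud, most of them at control levels under 3, and the 17 lower ones below it.

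Genes whose mean level over the 2 pools was highest in cluster 5 made up 342 of the 1899. No margin over the other clusters was required, and some stood as high elsewhere. Rarb, for example, was at 3.44 and 3.34 and reached 3.40 in cluster 9. Among them 11 (3.22%) were at least 2-fold higher in the MKO pool, which were Ccl2, Igfbp3, Cebpd, Adamts1, Fhl1, Mbd1 and the long non-coding or predicted genes Gm17268, Gm47712, Gm15261, Gm16833 and Sox5os4. Another 7 (2.05%) were at least 2-fold lower: Sned1, Ncam1, Itga8, Nhs, Sdk2, Col6a3 and Tnxb. The other 27 higher and 10 lower genes had their highest level in another cluster. Fhl1, Mbd1 and Sox5os4, as well as the predicted genes, lie outside the rule for named genes and were named after their values were seen.

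The promoter windows of 4 named genes past 2-fold are shown, a growth factor binding protein, a protease, an inhibitory Smad and a collagen chain, to set the letters before their starts beside their levels. They are the 250 bases before the RefSeq gene start in GRCm38.p6 (the mm10 assembly), written 5′ to 3′ on the gene's strand. Capitals mark the SMAD box CAGAC, the TATA motif TATAAA and the GC box GGGCGG on either strand, and TGANTCA, the AP-1 motif, was also searched.
Igfbp3, chr11:7213924-7214173, minus strand: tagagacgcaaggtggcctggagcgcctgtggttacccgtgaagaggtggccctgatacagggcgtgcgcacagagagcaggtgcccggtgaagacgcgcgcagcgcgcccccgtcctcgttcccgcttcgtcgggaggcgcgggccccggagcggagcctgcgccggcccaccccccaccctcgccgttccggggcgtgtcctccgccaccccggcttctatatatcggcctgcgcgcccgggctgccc
Adamts1, chr16:85803114-85803363, minus strand: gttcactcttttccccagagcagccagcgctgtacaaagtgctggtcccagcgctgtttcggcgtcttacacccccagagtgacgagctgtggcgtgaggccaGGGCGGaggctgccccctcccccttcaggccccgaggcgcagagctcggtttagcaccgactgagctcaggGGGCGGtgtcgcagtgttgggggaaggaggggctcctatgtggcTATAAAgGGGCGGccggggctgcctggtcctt
Smad6, chr9:64022060-64022309, minus strand: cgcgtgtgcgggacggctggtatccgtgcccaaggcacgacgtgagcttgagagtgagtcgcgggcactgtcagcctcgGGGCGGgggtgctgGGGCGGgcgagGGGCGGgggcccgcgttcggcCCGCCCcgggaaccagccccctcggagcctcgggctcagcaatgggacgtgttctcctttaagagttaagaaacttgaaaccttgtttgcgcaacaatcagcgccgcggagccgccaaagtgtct
Col6a3, chr1:90843972-90844221, minus strand: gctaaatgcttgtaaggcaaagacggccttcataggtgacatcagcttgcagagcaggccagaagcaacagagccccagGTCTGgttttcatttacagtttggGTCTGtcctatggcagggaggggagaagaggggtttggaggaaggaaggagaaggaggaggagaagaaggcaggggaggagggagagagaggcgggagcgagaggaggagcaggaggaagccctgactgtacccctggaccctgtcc
The Igfbp3 window held none of the 4 motifs as spelled. Adamts1 had 3 GC boxes and 1 TATAAA that ended 26 bases before the start. Smad6 had 4 GC boxes. Col6a3 had 2 SMAD boxes, both read on the opposite strand and so printed as GTCTG. Of 32851 windows of 250 bases, 42.2% held CAGAC, 32.7% GGGCGG, 12.4% TATAAA and 6.75% TGANTCA, so a match of one of the first 3 was common. A match is a run of letters and not a site of binding. Of 18 genes looked up, 13 had a window, and Ccl2, Ccn2, Cebpd, Ncam1 and Wt1 were not among them.

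The higher secreted and regulatory genes stood at low levels. Ccl2 (chr11:82035571-82037453, mm10), the monocyte chemoattractant, stood at 0.228 (control) and 1.33 (MKO), and at most 0.22 in any other cluster. Its span lies wholly within Gm17268 on the opposite strand, which stood at 0.214 and 1.33, and since no source states whether counting used strand, the reads of the pair cannot be told apart. Of the 55 genes past 2-fold, 21 had an opposite-strand gene over part or all of their span. Sox5os4 lies wholly within Sox5 (41.2 and 38.5) and Gm15261 within Arhgap6 (35.6 and 30.0). Ccn2 (chr10:24595442-24598683), the matricellular protein CTGF and a classic target of TGF-beta and YAP, stood at 0.699 and 2.40. Its mean level was highest in cluster 9, at 1.41 and 1.83, where endothelial genes summed to 135 and 120. Igfbp3 (chr11:7206086-7213923), a binding protein of insulin-like growth factors, stood at 0.909 and 2.30, and at most 0.102 elsewhere. Cebpd, a transcription factor of the acute phase, stood at 0.662 and 1.72. Adamts1 (chr16:85793827-85803113), a secreted protease that cuts proteoglycans, stood at 1.01 and 2.20. All 5 had a control value below the floor and passed it through the MKO pool, so their presence among the compared genes already required a higher value there.

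Matrix and adhesion genes were 1 group among the lower genes, beside genes of other kinds. Sned1, Ncam1 and Wt1 of those below were under the floor in the MKO pool and passed it through the control pool, where they had to be higher. Sned1, a secreted matrix protein, stood at 2.61 and 0.816 (log2 ratio -1.55). Itga8 (chr2:12106632-12301922), the integrin chain that binds nephronectin and marks mesenchymal cells, stood at 5.93 and 2.49, and it was also lower in the endothelial cluster 4, at 2.09 and 1.13. Col6a3 (chr1:90765923-90843971), a chain of the microfibrillar collagen VI, stood at 3.61 and 1.58, and at 1.72 and 1.02 in cluster 9. Tnxb, tenascin-X of collagen fibrils, stood at 3.29 and 1.45. Ncam1, a neural adhesion molecule, stood at 2.12 and 0.831. Smad6 (chr9:63953076-64022059), the inhibitory Smad that BMP signals induce, stood at 4.0 and 1.71 and was highest in cluster 9, at 8.02 and 7.39. Wt1, a transcription factor of mesothelium and of quiescent stellate cells, stood at 1.87 and 0.652, while in cluster 12 it stood at 4.20 and 5.14. The other mesothelial genes were at or near 0 in cluster 5 in both pools, and Wt1 made up nearly all of that list's sum of 1.90 and 0.692.

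Differences between the pools that ran through many clusters were also present in cluster 5. Hepatocyte genes were higher in the MKO pool in cluster 5, with 6 of the 20 past the floor at least 2-fold higher (Hpx, Serpina3k, Ttr, Serpina1a, Serpina1c and Mup3) and a median log2 ratio of 0.87, and the list's median was positive in all 13 clusters (0.35 to 1.05). Ttr, the transthyretin made by hepatocytes, stood at 6.14 and 13.6 in cluster 5. Rbp4, Fabp1, Hamp, Cpb2 and Orm1, hepatocyte secretory or lipid genes counted among the 38, stood highest in a cluster other than 5 as well. H2-D1, an MHC class I gene, stood at 2.50 and 6.11 in cluster 5 and was higher in the MKO pool in all 10 other clusters in which it could be compared. Cyp3a25, a liver cytochrome P450, and Slc7a2, an arginine transporter, were highest in clusters 0 and 1. They stood at 2.87 and 1.07 and at 3.70 and 1.5 in cluster 5, and they were lower by a median log2 of -1.25 over the 12 and -1.30 over the 10 other clusters compared. The nuclear RNA Malat1 stood at 526 and 791 in cluster 5 and was higher in the MKO pool in all 13 clusters. The part of these library-wide differences in the stellate ratios was not tested.

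The ratio also followed gene length. In cluster 5 the median log2 ratio was 0.65 for 136 genes with an annotated span under 10 kb, -0.01 for 351 genes of 10 to 50 kb, -0.14 for 990 genes of 50 to 200 kb and -0.25 for 412 genes over 200 kb. Of the shortest class 23 genes were at least 2-fold higher and 0 lower, and of the longest class 1 was higher and 7 lower. The genes at least 2-fold higher had a median span of 8.85 kb and those at least 2-fold lower 195 kb, against 94.6 kb for all compared. The Spearman correlation of span and ratio was -0.42 in cluster 5 and ran from -0.44 to -0.12 over all 13 clusters, as a description across genes of the same libraries. Within the 342 genes highest in cluster 5, where 339 had a span, the medians were 0.61, 0.16, -0.04 and -0.16 in the same order. When each ratio was centred on genes of like span, an alternative chosen after seeing the data, 20 genes were past 2-fold upwards and 14 downwards, 25 of them among the 55 counted before. Of the 18 genes named above as highest in cluster 5, 11 remained, Ccl2, Sned1, Itga8, Ncam1 and Tnxb among them. Igfbp3, Cebpd, Adamts1, Mbd1, Col6a3, Nhs and Sdk2 no longer passed. Other settings kept other members of the 18. An added constant of 1/2 of the floor left 4 higher and 3 lower, without Ncam1 and Tnxb. A floor at the 95th percentile left 3 higher and 5 lower, without Ccl2 and Ncam1.

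**Figure D4:**
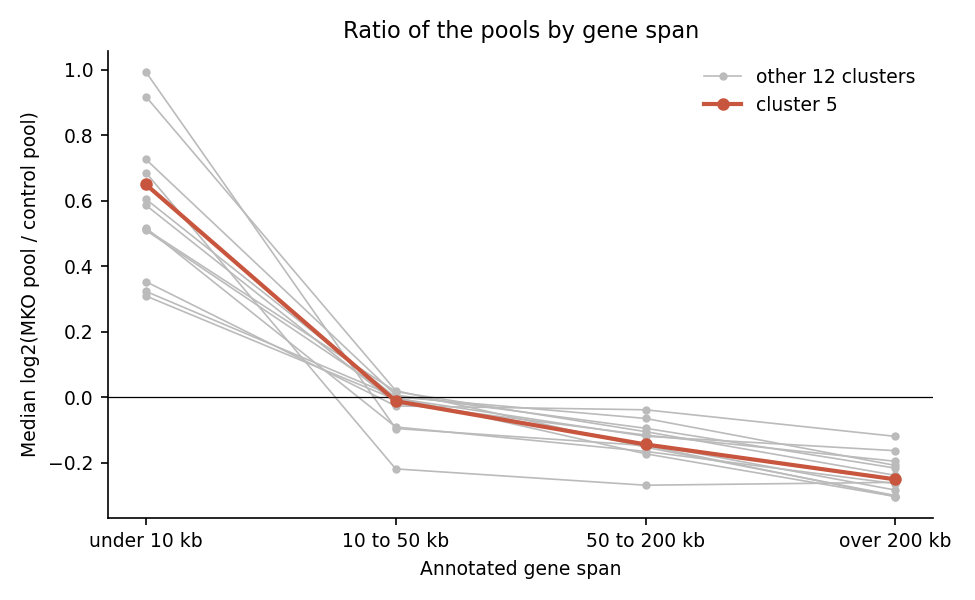
Median log2 ratio of MKO over control pool (vertical axis) in 4 classes of annotated gene span (horizontal axis), in cluster 5 (red) and the other 12 clusters (grey). In cluster 5 it ran from 0.65 under 10 kb to -0.25 over 200 kb, and in each of the other clusters the shortest class was also the highest.

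Quiescence genes had ratios of both signs between the pools. Of 18 genes of the quiescent state, 13 passed the floor, 8 with a positive and 5 with a negative ratio, and 0 passed 2-fold. The median log2 ratio was 0.17, beside -0.13 for all genes. It was 0.10 over the 12 members at the floor in both pools and -0.04 after centring by span. The list's summed level went the other way, 115 and 105, since Reln makes up a large part of it. Lrat, the enzyme that esterifies retinol for storage, stood at 1.59 and 2.26. Hand2 and Tcf21, mesenchymal transcription factors, stood at 1.42 and 2.14 and at 1.01 and 1.53. Tcf21 passed the floor through the MKO pool alone and so had to be higher there. Adamtsl2 and Gata4 were lower in the MKO pool, at 2.57 and 1.71 and at 4.63 and 3.64. Lhx2, a homeobox factor that holds stellate cells quiescent, stood at 1.51 and 1.55. Of 6 retinoid genes past the floor, Rbp4, a hepatocyte product highest in cluster 1, was at least 2-fold higher. The median was 0.50, or 0.18 with a floor at the 80th percentile. The list's median was positive in 12 of the 13 clusters, so this lean was not particular to cluster 5. Aldh1a1, which oxidises retinaldehyde, stood at 7.83 and 13.4 in cluster 5. In whole liver RNA it leaned the other way, at 27023, 27607 and 23713 in control livers and 19305, 18121 and 15462 in MKO livers, without overlap (adjusted p = 0.124 by limma, 0.121 by edgeR and 0.00284 by DESeq2). Bco1, which cleaves beta-carotene, stood at 1.39 and 2.05 in cluster 5.

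Activation genes had no common direction. Of 33 listed genes 8 passed the floor, 1 was at least 2-fold higher (Ccn2) and 0 lower, with a median of 0.00. Acta2, smooth muscle actin and the usual mark of the myofibroblast, stood at 0.0395 and 0.056, and Timp1, an inhibitor of matrix proteases, at 0.0557 and 0.104, far below the floor in both pools. Col1a1 and Col1a2, the chains of collagen I, stood at 0.840 and 0.756 and at 1.70 and 1.77. Col3a1 stood at 5.49 and 5.30. Over the collagen list 9 of 33 passed the floor, Col6a3 alone passed 2-fold and the median was 0.05, which became -0.14 with a floor at the 80th percentile. Col14a1, a collagen of fibril surfaces, stood at 9.16 and 12.5, and Col4a1 of basement membrane at 2.37 and 3.19.

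Of the other matrix genes 25 passed the floor, with 1 higher (Adamts1), 1 lower (Tnxb) and a median of -0.23. Dcn, the proteoglycan decorin, stood at 25.5 and 36.5, Lama2, a laminin chain, at 8.05 and 4.57, and Ecm1, a matrix protein that holds TGF-beta latent, at 2.97 and 4.19. The contractility list had 12 genes past the floor, 0 past 2-fold and a median of -0.03, or 0.16 after centring by span. Prkg1, the cGMP-dependent kinase, stood at 72.0 and 70.8.

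Genes of the TGF-beta pathway leaned to lower values in the MKO pool. Of 45 listed genes 22 passed the floor, 18 of them with a negative and 4 with a positive ratio, where 67.6% of all 1899 genes were negative. The list's median was negative in 10 of the 13 clusters. In cluster 5 it was -0.29 beside -0.13 for all genes, -0.18 over the 17 members at the floor in both pools and -0.16 after centring by span. Among ligands, Tgfb1 stood at 0.354 and 0.363, Tgfb2 at 0.547 and 0.355 and Tgfb3 at 0.0969 and 0.0918, all under the floor. Tgfbr3, the co-receptor betaglycan, stood at 8.91 and 7.83, and Acvr2a, an activin receptor, at 5.09 and 5.20. Among latent-form handlers and signal carriers, Ltbp1 stood at 4.01 and 2.49, the integrin chain Itgb8 at 2.0 and 1.20, Smad3 at 1.76 and 1.06 and the ubiquitin ligase Smurf2 at 2.86 and 2.14. Smad7, the inhibitory Smad induced by TGF-beta, stood at 1.89 and 1.82. Of the target genes, Ccn2 was the single member at least 2-fold higher and Smad6 was the single member at least 2-fold lower.

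Of 12 secreted signals past the floor 10 had a positive ratio, Ccl2 alone passed 2-fold and the median was 0.36. The lean rested in part on Ccl2, Il34, Csf1 and Angptl6, which passed the floor through the MKO pool alone and so had to be higher there. The 8 at the floor in both pools had a median of 0.09, with 6 positive. Il34 and Csf1, the 2 ligands of the macrophage receptor CSF1R, stood at 1.09 and 2.26 and at 0.945 and 1.72, both highest in cluster 5. In whole liver Csf1 was at 262, 213 and 204 in control livers and 328, 288 and 284 in MKO livers, which did not overlap (limma adjusted p = 0.278). Vegfc, a lymphangiogenic factor, stood at 3.60 and 5.65, and Angptl6 at 0.615 and 1.19. Hgf, the hepatocyte growth factor, stood at 27.8 and 25.3, Cxcl12 at 7.43 and 8.13 and Rspo3 at 8.09 and 8.38. Il6, an inflammatory cytokine, was at 0.00233 and 0.00132.

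Receptors had positive and negative ratios, and guidance molecules had mostly negative ones, as did all genes compared. Of 17 growth factor and vasoactive receptors past the floor 0 passed 2-fold, with a median of -0.10 (0.03 when all ratios were centred on their median), while the summed level of the whole list was 94.6 and 98.6. Agtr1a, the angiotensin receptor, stood at 7.67 and 12.6, Ednrb, the endothelin B receptor, at 2.52 and 4.68 and Tnfrsf11b, the decoy receptor osteoprotegerin, at 1.37 and 2.82, the last just short of 2-fold with the added constant. In whole liver Tnfrsf11b was at 51.0, 44.1 and 46.3 in control livers and 76.9, 92.8 and 65.5 in MKO livers, which did not overlap (log2 fold change 0.71 ± 0.21, SE; limma adjusted p = 0.161). Of 19 neural-type adhesion and guidance genes past the floor 14 had a negative ratio, where 67.6% of all 1899 genes did. Of the 17 at the floor in both pools 12 were negative, beside 69.9% of all such genes. Ncam1 was at least 2-fold lower. The median of the 19 was -0.27, which became -0.02 after centring by span. The list's summed level was 314 and 269, and its median was negative in 10 of the 12 clusters that gave one. Alcam, an adhesion molecule, stood at 27.2 and 13.7, a log2 ratio of -0.98. The 4 interferon-stimulated genes past the floor had a median of 0.48, with Oasl2 at 0.692 and 1.19. The immediate early list summed to 3.09 and 4.53, with 0 genes past the floor.

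Whole liver gave the replicated view, in which RNA of stellate cells mixes with that of all other cells. The 6 libraries held 17448117 to 23986319 reads. Across 15249 genes tested with limma on log2(normalised count + 1), 452 rose and 13 fell in MKO livers at a Benjamini-Hochberg adjusted p under 0.05 (3.05% in all), and 19.4% had groups that did not overlap in either direction. The macrophage list moved with genotype: 12 of its 18 genes rose and 1 fell, and its summed level ran from 5984 to 12681 in control livers and from 17136 to 26238 in MKO livers. For the stellate identity list these ranges were 21565 to 32070 and 22692 to 27602. The part of the other cell types in the bulk values below was not tested.

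Of the 50 leading genes of cluster 5, 44 were listed in bulk, and 0 were called by limma, 0 by edgeR and 0 by DESeq2. An unadjusted limma p under 0.05 was found for 3 of the 44, and for 1847 of all 15249 genes tested. The median log2 fold change of the 44 was 0.20, beside -0.02 for all genes, and 40 of 44 were positive (90.9%, against 45.9% of all genes). All MKO livers stood above all control livers for 5 of them (11.4%), near the 10.4% of all genes. Reln was at 810.0, 888 and 1178 in control livers and 968, 1093 and 971 in MKO livers, which overlapped. Ntm was at 54.3, 57.7 and 55.2 against 67.1, 41.8 and 60.7, with the MKO livers on both sides of the controls. Colec10 was at 398, 370 and 381 against 458, 531 and 448, so that the groups did not overlap. Its log2 fold change was 0.32 ± 0.12 (SE), with a limma adjusted p of 0.313, in the same direction as in the nuclei. Colec10 had the highest nuclei ratio of the 50 leading genes. Of these 50, 32 had a negative ratio in the nuclei, where 69.9% of all 1515 genes at the floor in both pools did. Of the 30 stellate identity genes 0 were called by limma, edgeR or DESeq2 (2 at an unadjusted p under 0.05), with a median of 0.22 and 26 positive. Other cell types leaned too, with 20 of 20 endothelial genes positive (median 0.30), 12 of 12 T and NK genes positive (median 1.28) and 19 of 26 hepatocyte genes negative.

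Of the 18 genes highest in cluster 5 and past 2-fold there, 13 were listed in bulk. By limma, edgeR or DESeq2, 0 of the 7 higher and 0 of the 6 lower ones were called. An unadjusted limma p under 0.05 was found for 3 and 0 of them (1847 of 15249 over all genes). Ccl2 was at 35.8, 15.7 and 13.8 in control livers and 33.0, 38.8 and 53.0 in MKO livers. The MKO livers were high except that the first control liver lay among them, and the log2 fold change was 1.0 ± 0.39 (SE), with a limma adjusted p of 0.343. Igfbp3 was at 322, 281 and 305 in control livers and 563, 299 and 787 in MKO livers. 2 of 3 MKO livers stood above all controls, and the log2 fold change was 0.75 ± 0.30 (SE). By limma its adjusted p was 0.361. It was 0.0351 without the second MKO liver, the one inside the control range, so leaving that liver out favoured a call. Cebpd was at 265, 383 and 208 against 303, 494 and 574, with an overlap and a limma adjusted p of 0.386.

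Ccn2, which was 1.62 higher on the log2 scale in the nuclei, was at 125, 134 and 201 in control livers and 200.3, 341 and 392 in MKO livers. 1 MKO liver was level with the highest control. Its log2 fold change of 0.99 ± 0.28 (SE) had an adjusted p of 0.133 by limma, 0.114 by edgeR and 0.0112 by DESeq2. By limma it was 0.0307 without the first MKO liver, the one level with a control, so leaving that liver out favoured a call. Of the genes highest in cluster 5 and past 2-fold there, the 6 lower ones listed in bulk had a median log2 fold change of -0.26, 4 of them negative. The 7 higher ones had a median of 0.23, 5 of them positive. Col6a3 was at 239, 192 and 491 against 247, 235 and 213, Itga8 at 153, 103 and 267 against 145, 173 and 105, and Smad6 at 213, 183 and 196 against 199, 178 and 239. The groups of all 3 overlapped, with limma adjusted p of 0.784, 0.858 and 0.937, and the third control liver held the highest value of Col6a3 and Itga8.

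**Figure D5:**
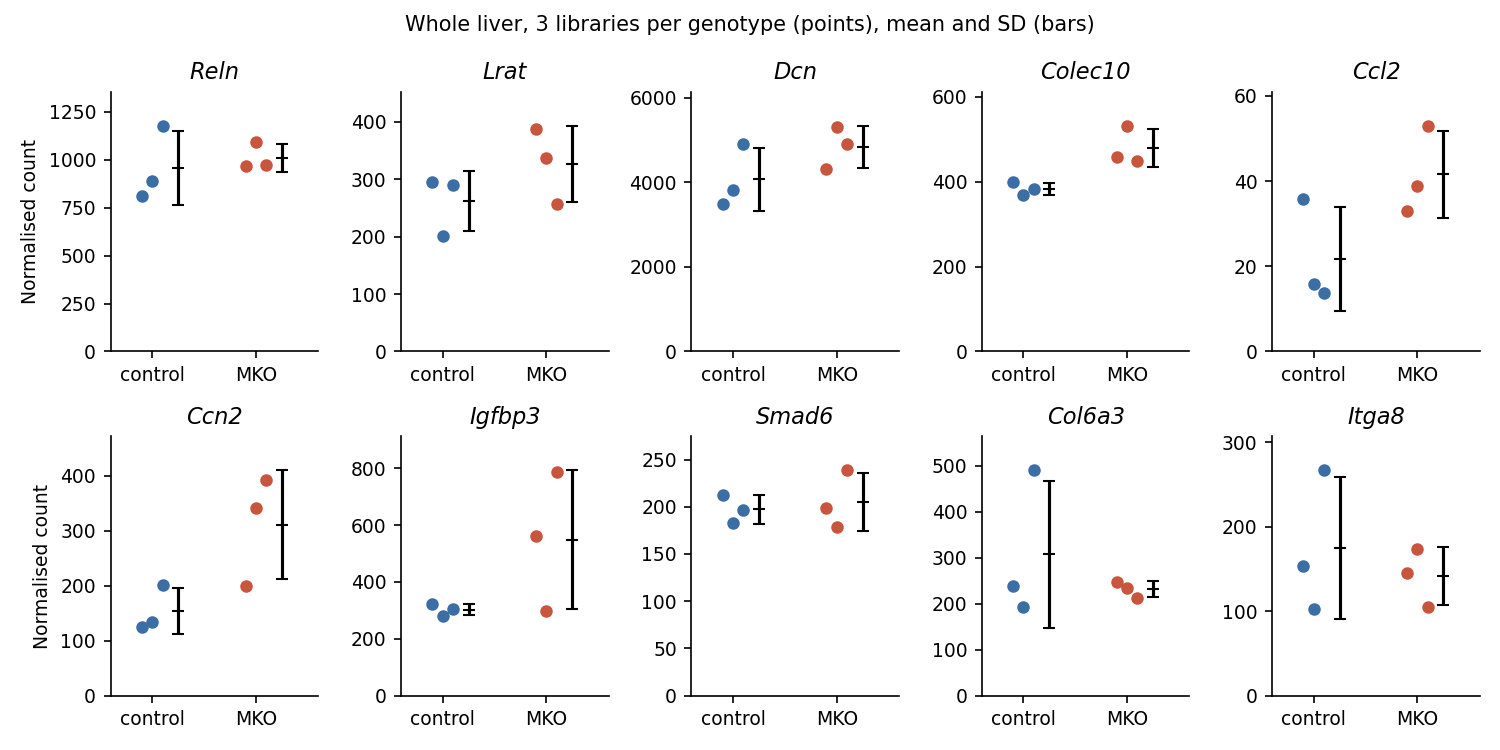
Normalised counts in whole liver (vertical axis, from 0) of 10 genes in 3 control (blue) and 3 MKO (red) libraries, with the mean and SD (n = 3) beside the points. Colec10 is the single gene of the 10 whose groups do not overlap, and 2 of 3 Igfbp3 values in MKO livers lie above all controls.

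Over all 15249 genes tested in bulk, 452 rose and 13 fell by limma, and the list counts below stand beside that share. In the TGF-beta list 2 of 42 genes rose and 0 fell, namely Tgfb1 (178, 124 and 151 against 238, 319 and 343, limma adjusted p = 0.0315) and Acvrl1, a BMP9 receptor of endothelium (96.6, 69.3 and 57.2 against 179, 182 and 162, limma adjusted p = 0.0165). In cluster 5 these stood at 0.354 and 0.363 and at 0.0528 and 0.0565. The call of Tgfb1 was lost by limma without control 2 or 3 or MKO 2 or 3 (adjusted p up to 0.141), and that of Acvrl1 without control 2 or any 1 MKO liver (up to 0.0866). Tgfb1 was highest in the macrophage cluster 2, at most 1.93 there. In the neural-type list 3 of 29 rose and 0 fell: Negr1, Sema6d and Tenm4. Sema6d was at 315, 210.0 and 243 in control livers and 608, 619 and 512 in MKO livers (limma adjusted p = 0.00773), while in cluster 5 it stood at 11.7 and 13.3. Leaving out MKO 2 raised the adjusted p of Sema6d to 0.0506, and Tenm4 kept its call in 1 of 6 such fits (adjusted p up to 0.142). Negr1 and Tenm4, both highest in cluster 2, stood at 0.0546 and 0.350 and at 0.087 and 0.0759 in cluster 5. The activation list had 0 of 27 called by limma and edgeR, 2 by DESeq2 and 5 at an unadjusted limma p under 0.05 (1847 of 15249 over all genes). The collagen list had 0 of 27 called by all 3 tools and 4 at an unadjusted p under 0.05, with Col14a1 (700.4, 666 and 864 against 1046, 916 and 1033, limma adjusted p = 0.175) higher in all 3 MKO livers than in any control. Col14a1 also had a positive ratio in the nuclei. In the interferon-stimulated list 8 of 25 rose and 0 fell, and 3 of the 8 kept their call in all 6 fits with 1 library left out. Its summed level ran from 11242 to 13887 in control livers and from 17151 to 19972 in MKO livers. In cluster 5, 4 of this list passed the floor, 1 of them through the MKO pool alone, all with a positive ratio, and the list's median was positive in 10 of the 12 clusters that gave one.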

How the data were processed

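The submitters' processing notes name Seurat 4.0.1 and Cell Ranger as well as RSEM 1.3.3, STAR, FastQC and DESeq2, and the build mm10, without settings or cluster names. The nuclei table deposited by the authors holds a signal, the mean per gene and cluster, and each of its 26 columns sums to 10000. How nuclei were filtered and doublets treated is not given. The bulk table deposited by the authors holds a normalised signal, gene counts divided by 1 factor per library, and dividing by the value of 1 read gave whole reads for 100% of the values (tolerance 0.01). The authors' deposited log2 fold changes and p-values were not used. Pools were compared by log2 ratio, with no test. Bulk values were tested with limma 3.58.1 (R 4.3.3) over genes with a mean of at least 1, two-sided, on genotype alone, and edgeR 4.0.16 and DESeq2 1.42.0 were run on the recovered reads. The scripts were tested on simulated data. Labels give replicates a number alone, and p-values then cover the spread among these libraries, which may be technical. Members, lists and tests were chosen with earlier results of these data known. Named genes were Tgfbr1, the 4 given markers, the 15 leading genes, the 15 highest and 15 lowest ratios with an official symbol, up to 4 members of each list with the highest level in cluster 5, and any list member past 2-fold. Other genes were named after their values were seen, and a few that meet the rule are not reported here. Gene positions and spans are from GENCODE M21, which held 22125 of the 22578 genes, and promoter sequence is from RefSeq GRCm38.p6.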

Additional observations from a re-analysis of the deposited data

How the results depend on the processing

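The count of genes at least 2-fold higher in cluster 5 (38) was 72 with a floor at the 80th percentile, 20 at the 95th, 14 with an added constant of 1/2 of the floor, 59 centred on the median and 20 centred by gene span. The count of lower genes (17) was 46, 10, 6 and 11 under the first 4 of these. Of the 55 genes, 49 remained past 2-fold when the columns were rescaled without hepatocyte genes and 25 after centring by span, which was chosen after seeing the data. The median of each of 11 gene lists moved by less than 2-fold under the 8 alternatives, though some medians changed sign. In bulk, genes called higher (452) numbered 312 to 634 under other tools and filters and 175 to 410 with 1 library left out, the lowest being 238 without control 2, 175 without MKO 2 and 181 without MKO 3. Genes called lower (13) numbered 7 after quantile normalisation, 50 by DESeq2 and 5 to 31 with 1 library left out (6 without control 1, 5 without control 2, 31 without MKO 1, 5 without MKO 2). The same replicate numbers did not pair the libraries (correlations of deviations 0.06, -0.03 and -0.11), and with a replicate block 391 genes were higher, 17 lower and 0 of the leading genes called. The leading genes of cluster 5 had 0 calls under every alternative run, with 25, 50 or 100 of them. No gene named in the text reversed its direction in a called value. With 1 pool per genotype and no number of nuclei, the precision of a cluster 5 level is unknown.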
